A study of Mus musculus with 6 samples.

Results

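Serum amyloid A genes (*Saa1*, *Saa2*, *Saa3*), *Ubd*, *Nos2*, *Duox2*, *Duoxa2*, *Lcn2* and *Retnlb* are epithelial genes that gut microbes and the cytokines they elicit can induce. They are 9 of the 32285 genes in the files and were found by their symbols. They were selected on their UMI counts in these libraries, that is, with their levels and differences already known, so the values below are a description and no test was run on them. Over the epithelial cells of all libraries, *Nos2* had 5883 unique molecular identifiers (UMIs, each marking 1 captured RNA molecule), *Duox2* had 4017, *Duoxa2* 2051, *Saa1* 2013 and *Ubd* 1083. The other members were sparse, with 108 UMIs of *Lcn2*, 106 of *Saa3*, 48 of *Retnlb* and 45 of *Saa2*.

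The cells came from the jejunum of wildtype male C57BL/6J mice of about 30 weeks, which had eaten a low-fat diet (LFD) or a high-fat diet (HFD) for 16 weeks before surgery. They went back to the same diet after it and were fasted overnight before collection 5 weeks after surgery. LFD sham and HFD sham mice had a sham operation, and HFD VSG mice had a vertical sleeve gastrectomy (VSG), which removes most of the stomach along its greater curvature. Each group gave 1 crypt-labelled and 1 villus-labelled library, pooled from 3 LFD sham, 3 HFD sham or 2 HFD VSG mice. With 1 library per group, a difference between groups cannot be told apart from a difference between mice or preparations, and all intervals below are 95% intervals for counting error only.

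Serum amyloid A proteins are acute-phase lipoproteins that also bind retinol. In the small intestine they are a known response of epithelial cells to adherent bacteria, through interleukin-22 and STAT3. *Ubd* encodes FAT10, a ubiquitin-like tag for degradation that interferon-gamma and tumor necrosis factor induce. *Nos2* encodes the inducible nitric oxide synthase, and DUOX2 is an apical oxidase that releases hydrogen peroxide and needs its partner DUOXA2 to reach the membrane. Lipocalin 2 (*Lcn2*) withholds iron by binding bacterial siderophores, and *Retnlb* encodes the goblet cell protein RELM-beta, which acts on bacteria.

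The promoters of *Saa1* and *Saa2* are shown because the genes are near copies of each other. That of *Ubd* is shown because the gene was, like *Saa1*, beyond 2-fold lower in HFD sham than in LFD sham under both labels. *Saa1* (chromosome 7, 46740497 to 46742980, minus strand) and *Saa2* (46751790 to 46754313, plus strand) start 8810 bases apart and point away from each other, and *Saa3* (46711998 to 46715700, minus strand) lies beside them (GRCm38, GENCODE vM21). The sequences are from RefSeq (GRCm38.p6) and run from 250 bases before to 50 bases after the start, on the strand of the gene, at chr7:46742931-46743230 for *Saa1*, chr7:46751583-46751882 for *Saa2* and chr17:37193642-37193941 for *Ubd*. Capitals mark TTGCNCAA, a motif of C/EBP factors, in the *Saa* promoters and the NF-kB consensus in the *Ubd* promoter.
Saa1: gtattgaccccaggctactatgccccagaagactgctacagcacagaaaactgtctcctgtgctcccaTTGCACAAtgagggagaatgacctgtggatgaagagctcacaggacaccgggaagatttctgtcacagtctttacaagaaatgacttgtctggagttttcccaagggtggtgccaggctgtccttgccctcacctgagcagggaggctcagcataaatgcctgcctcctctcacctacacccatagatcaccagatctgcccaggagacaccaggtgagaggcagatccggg
Saa2: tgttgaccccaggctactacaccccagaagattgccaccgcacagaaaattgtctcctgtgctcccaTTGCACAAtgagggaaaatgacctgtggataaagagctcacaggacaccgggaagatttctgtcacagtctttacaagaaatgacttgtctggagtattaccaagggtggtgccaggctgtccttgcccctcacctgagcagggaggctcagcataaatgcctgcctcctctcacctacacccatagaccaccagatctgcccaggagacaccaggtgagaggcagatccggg
Ubd: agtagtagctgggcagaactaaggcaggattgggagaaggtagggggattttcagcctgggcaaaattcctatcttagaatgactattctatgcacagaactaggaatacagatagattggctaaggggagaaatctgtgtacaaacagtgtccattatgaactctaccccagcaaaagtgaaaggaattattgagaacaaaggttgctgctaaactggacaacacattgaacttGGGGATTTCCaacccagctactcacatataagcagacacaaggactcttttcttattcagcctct

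The *Saa1* and *Saa2* promoters were identical at 287 of 301 aligned positions (95.3%), against 49.4% between *Saa1* and *Saa3*. The most alike transcripts of *Saa1* and *Saa2* were 93.9% identical, and 10 of the 520 windows of 90 bases in the *Saa1* transcript also occurred in *Saa2*. A read within those windows does not tell these 2 genes apart, and the share of UMIs from them was not examined. Of the 7 members with a promoter in the reference table, 3 (*Saa1*, *Saa2* and *Lcn2*) held TTGCNCAA on either strand, as did 2.94% of 32841 promoters. Only the *Ubd* promoter held the NF-kB consensus (4.51% of all promoters), none of the 7 held TTCNNNGAA (8.30%), and *Duoxa2* alone held TATAAA (13.6%). *Duox2* (chromosome 2, 122279247 to 122298449, minus strand) and *Duoxa2* (122298900 to 122302885, plus strand) are head to head with starts 451 bases apart, and *Duoxa2* overlaps *Duoxa1* on the opposite strand. The remaining members were *Nos2* (chromosome 11, 78920787 to 78960254, plus strand), *Lcn2* (chromosome 2, 32384633 to 32388252, minus strand) and *Retnlb* (chromosome 16, 48816856 to 48818892, plus strand).

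After filtering, 24578 cells were kept, of which 23050 were epithelial and 1528 formed an immune-like cluster that was kept out of the sums. The epithelial sums held 34098157 to 126127270 UMIs per library, with the most in the HFD VSG villi, and levels are given as counts scaled to the same total of these UMIs in each library (CPM, the usual per-million scale). The library labels and the cells went against each other. Stem-like cells were 1.199% to 3.02% of epithelial cells in the crypt-labelled libraries and 2.57% to 12.2% in the villus-labelled ones, while enterocyte-like cluster 4, led by the villus-tip genes *Ada*, *Slc28a2* and *Nt5e*, had 404 to 555 cells in the former and 27 to 199 in the latter. The labels are therefore used as names, and results are also given within classes of cells. Clusters 2 and 3, led by transcripts of damaged droplets (*Gm42418*, *Lars2*), had 1128 and 514 cells in the LFD sham crypts but 194 and 115 in the HFD VSG villi, and the median share of mitochondrial UMIs was 12.8% and 7.44% in these libraries, the extremes of the 6. Pairs of libraries shared 17 to 43 barcodes. In the epithelial sums, neutrophil markers (5 genes, *S100a8* and *S100a9* at 0 in every library) and stromal markers (5 genes) each had 0 to 2 UMIs per library. Macrophage markers (6 genes, 4 to 5 detected) were at 0.57 to 1.63 CPM. Markers of B and plasma cells (6 genes, 4 to 6 detected) ranged from 0.10 CPM in the LFD sham crypts to 41.8 CPM in the LFD sham villi, and lymphocyte markers (11 genes, 8 to 11 detected) from 1.95 CPM in the HFD sham villi to 53.3 CPM in the LFD sham villi. Their part in the levels of the members was not tested.

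*Saa1* was abundant in the 2 LFD sham libraries and low in the 4 HFD libraries. Among crypt-labelled libraries, LFD sham stood at 19.0 CPM (17.8 to 20.3), HFD sham at 2.08 (1.63 to 2.63) and HFD VSG at 1.25 (1.01 to 1.53). In the villus-labelled libraries it was 16.7 CPM (15.6 to 17.8) in LFD sham, 0.22 (0.11 to 0.40) in HFD sham and 0.16 (0.097 to 0.24) in HFD VSG. Both LFD intervals lay above all 4 HFD intervals, and the intervals of the HFD sham villi and HFD VSG villi overlapped. The log2 ratio of HFD sham to LFD sham was -3.19 (-3.56 to -2.84) in the crypt-labelled and -6.24 (-7.24 to -5.39) in the villus-labelled libraries, a 9.14-fold and a 75.3-fold lower level under HFD. With cells of at most 10% mitochondrial UMIs these log2 ratios were -2.22 and -5.15. The log2 ratios of HFD VSG to HFD sham were -0.73 (-1.19 to -0.27) and -0.48 (-1.61 to 0.73), the second from 20 and 11 UMIs with an interval that includes 0, and those of HFD VSG to LFD sham were -3.92 (-4.24 to -3.62) and -6.72 (-7.44 to -6.08). In the HFD sham crypts 1 cell held 25 of the 71 UMIs, and without the highest cell of each library the crypt-labelled ratio of HFD sham to LFD sham was -3.73 and that of HFD VSG to HFD sham -0.47 (-1.02 to 0.095), an interval that includes 0. With the mitochondrial limit the ratios of HFD VSG to HFD sham were -3.07 and 0.0078 and those to LFD sham -5.29 and -5.14. With doublets kept the villus-labelled ratio to HFD sham was 0.38.

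*Ubd* was also higher in LFD sham than in the HFD libraries. Its crypt-labelled level was 9.67 CPM (8.81 to 10.6) for LFD sham, 0.32 (0.16 to 0.58) for HFD sham and 0.95 (0.74 to 1.197) for HFD VSG. The villus-labelled libraries gave 9.44 CPM (8.64 to 10.3), 0.34 (0.20 to 0.55) and 0.071 (0.033 to 0.14). The intervals of the 2 LFD libraries overlapped, as did those of the 2 HFD sham libraries. HFD sham to LFD sham was -4.90 (-5.92 to -4.05) and -4.79 (-5.58 to -4.09) in log2, that is 29.96-fold and 27.6-fold lower, and -3.72 and -1.23 with at most 10% mitochondrial UMIs. HFD VSG stood above HFD sham in the crypt-labelled libraries, at a log2 ratio of 1.56 (0.64 to 2.62), and below it in the villus-labelled ones, at -2.26 (-3.61 to -1.02). Of the 72 UMIs in the HFD VSG crypts, 43.1% came from 1 cell, and of the 17 in the HFD sham villi, 11 did. Without the highest cell of each library these ratios were 1.203 (0.091 to 2.51) and -1.35 (-3.25 to 0.56), the second from 6 and 6 UMIs with an interval that includes 0, and those of HFD sham to LFD sham were -5.32 (-6.54 to -4.33) and -6.23 (-7.68 to -5.10). To LFD sham, HFD VSG was at -3.35 (-3.72 to -2.99) and -7.05 (-8.19 to -6.11), at -4.12 (-4.62 to -3.66) and -7.58 (-9.03 to -6.44) without the highest cells, and at -1.16 and -4.63 with that mitochondrial limit, under which the ratios to HFD sham were 2.56 and -3.41.

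*Nos2* did not separate the diets in the same way. Its crypt-labelled levels were 23.9 CPM (22.6 to 25.4) in LFD sham, 16.1 (14.8 to 17.5) in HFD sham and 26.3 (25.1 to 27.4) in HFD VSG. Its villus-labelled levels were 22.2 CPM (21.0 to 23.5), 8.86 (8.05 to 9.72) and 4.40 (4.04 to 4.78). HFD sham was lower than LFD sham in both, by a log2 ratio of -0.57 (-0.72 to -0.43) and -1.33 (-1.49 to -1.17). After VSG the level was above HFD sham in the crypt-labelled libraries, at 0.71 (0.57 to 0.84), and below it in the villus-labelled ones, at -1.01 (-1.19 to -0.83), which is at the limit of 2-fold and was -0.88 without clusters 2 and 3. With at most 10% mitochondrial UMIs the crypt-labelled ratios had the opposite sign, at 0.16 for HFD sham to LFD sham and -0.19 for HFD VSG to HFD sham, and the villus-labelled ones were -0.58 and -1.27.

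Over all epithelial cells, *Duox2* and *Duoxa2* were highest after VSG under both labels. In crypt-labelled libraries *Duox2* was at 4.66 CPM (4.07 to 5.31) with LFD sham, 5.98 (5.19 to 6.86) with HFD sham and 18.3 (17.3 to 19.3) with HFD VSG. In the villus-labelled libraries it was at 9.69 CPM (8.87 to 10.6), 5.47 (4.84 to 6.17) and 11.2 (10.6 to 11.8), so that the LFD sham level came close to that of HFD VSG. Within enterocyte-like cells the villus-labelled log2 ratio of HFD VSG to LFD sham was 0.085 (-0.16 to 0.33), an interval that includes 0. *Duoxa2* was at 1.13 CPM (0.85 to 1.48), 2.64 (2.12 to 3.24) and 11.3 (10.5 to 12.05) in the crypt-labelled and at 2.34 CPM (1.95 to 2.79), 2.01 (1.64 to 2.45) and 6.56 (6.13 to 7.03) in the villus-labelled libraries. The log2 ratio of HFD VSG to HFD sham was 1.61 (1.40 to 1.83) and 1.03 (0.84 to 1.22) for *Duox2*, and 2.09 (1.78 to 2.42) and 1.71 (1.40 to 2.02) for *Duoxa2*. With at most 10% mitochondrial UMIs these were 1.02, 0.67, 0.94 and 1.42, so that *Duox2* in the villus-labelled and *Duoxa2* in the crypt-labelled libraries were no longer beyond 2-fold. With cells thinned to 2000 UMIs *Duox2* in the villus-labelled libraries was at 0.75. Over all genes this ratio had a median of 0.16 in the crypt-labelled libraries, which scaling by the median of ratios brought to -0.0078. With that scaling *Duox2* was at 1.44, *Duoxa2* at 1.92, *Ubd* at 1.39 and *Saa1* at -0.90. The medians of HFD VSG to LFD sham were 0.14 in the crypt-labelled and -0.13 in the villus-labelled libraries, and -0.0018 and -0.082 with that scaling.

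The 4 sparse members were counted in few cells. In crypt-labelled libraries *Saa2* had 5 UMIs with LFD sham, 0 with HFD sham and 15 with HFD VSG, where 1 cell held 13. The villus-labelled libraries of the same groups had 20, 1 and 4. A sum of 0 allows up to 3 UMIs, which is 0.088 CPM in the HFD sham crypts. *Saa3* had 39 UMIs in the LFD sham crypts, of which 22 came from 1 cell, then 2 and 7 in the HFD sham and HFD VSG crypts, and 20, 4 and 34 in the villus-labelled libraries. *Lcn2* had 23, 0 and 7 UMIs in the crypt-labelled and 48, 3 and 27 in the villus-labelled libraries of LFD sham, HFD sham and HFD VSG. In CPM, LFD sham was the highest of the 3 groups for *Lcn2* under both labels. Its villus-labelled ratio of HFD VSG to HFD sham was 1.83 (0.13 to 4.19), and -0.39 (-2.95 to 2.38) in the enterocyte-like cells, where the sums were 4 and 2 UMIs, and 0.65 over epithelial cells with at most 10% mitochondrial UMIs. *Retnlb* had 0 UMIs in the crypt-labelled libraries, which allows up to 0.040 to 0.088 CPM, and 33, 10 and 5 UMIs in the villus-labelled ones.

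**Figure D1:**
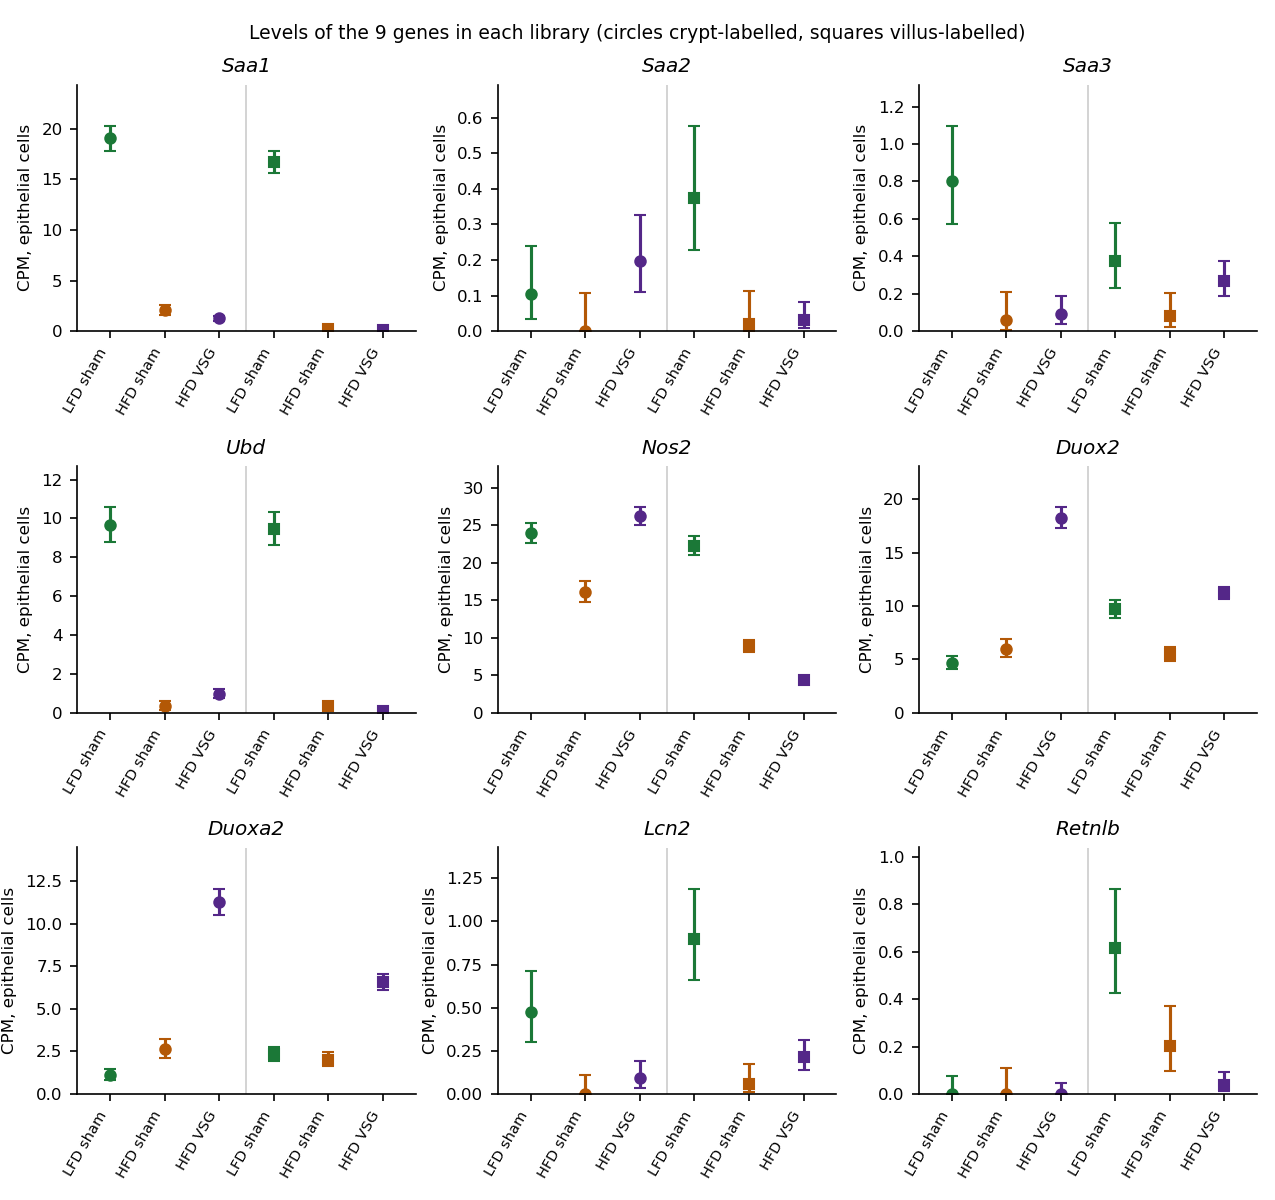
Levels of the 9 genes over the epithelial cells of each library in CPM, with 95% Poisson intervals as bars. Each panel has its own axis from 0, and green, orange and purple stand for LFD sham, HFD sham and HFD VSG. *Saa1* and *Ubd* stand high in both LFD sham libraries, while *Duoxa2* stands highest in both HFD VSG libraries.

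Other choices of cells, scaling or free RNA moved several of these log2 ratios, so their lowest and highest values over all settings tried, the reported one included, are given here. *Saa1* in HFD sham against LFD sham was at -3.73 to -2.22 in the crypt-labelled and -6.66 to -5.15 in the villus-labelled libraries, and *Ubd* at -6.37 to -3.72 and -6.23 to -1.23. Both were beyond 2-fold lower under each setting. In that comparison *Nos2* was at -0.66 to 0.16 and -1.60 to -0.58, *Duox2* at 0.0050 to 0.73 and -1.50 to -0.35, *Duoxa2* at 1.00 to 1.67 and -1.61 to 0.21, and *Lcn2* in the villus-labelled libraries at -4.25 to -1.09. In HFD VSG against HFD sham *Duox2* was at 1.02 to 1.93 and 0.67 to 1.59 and *Duoxa2* at 0.94 to 2.32 and 1.42 to 2.59. These 4 ratios stayed above 0 but not all above 2-fold. *Saa1* was at -3.07 to -0.47 and -0.61 to 0.38, *Ubd* at 1.203 to 2.56 and -3.41 to -1.28, *Nos2* at -0.19 to 0.87 and -1.27 to -0.51 and *Lcn2* at -0.39 to 2.30. Between HFD VSG and LFD sham the ranges were -5.29 to -3.65 and -7.07 to -5.14 for *Saa1*, -4.44 to -1.16 and -7.58 to -4.63 for *Ubd*, -0.034 to 0.55 and -2.70 to -1.84 for *Nos2*, 1.42 to 2.45 and 0.085 to 0.32 for *Duox2*, 2.61 to 3.59 and 0.98 to 1.62 for *Duoxa2* and -2.80 to -1.15 for *Lcn2* in the villus-labelled libraries. The sign therefore depended on the setting for *Nos2* in all 3 crypt-labelled comparisons, for *Duoxa2* between HFD sham and LFD sham villi, and for *Saa1* and *Lcn2* between HFD VSG and HFD sham villi.

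To set these ratios beside the rest of the transcriptome, a gene counted as measured where its mean over the 3 libraries of a label was 20 UMIs or more. This held for 5 members among 12470 genes in the crypt-labelled libraries (*Saa1*, *Ubd*, *Nos2*, *Duox2*, *Duoxa2*) and for 6 among 13483 in the villus-labelled ones (also *Lcn2*). *Saa2*, *Saa3* and *Retnlb* passed in neither. In the villus-labelled libraries *Saa1*, *Ubd* and *Lcn2* passed only through LFD sham, so that their UMIs had to be fewer in the HFD libraries. Between HFD sham and LFD sham, 2 were beyond 2-fold lower (*Saa1*, *Ubd*), beside 2.93% of all measured genes in the crypt-labelled libraries, and 1 was higher (*Duoxa2*), beside 1.19%. In the villus-labelled libraries 4 were lower (*Saa1*, *Ubd*, *Nos2*, *Lcn2*), beside 5.04%, and 0 were higher, beside 1.82%. Between HFD VSG and HFD sham, 0 were lower, beside 0.642%, and 3 were higher (*Ubd*, *Duox2*, *Duoxa2*), beside 2.63%, in the crypt-labelled libraries. With median-of-ratios scaling these shares of all genes were 1.03% and 1.59%. In the villus-labelled libraries 2 were lower (*Ubd*, *Nos2*), beside 9.15%, and 3 were higher (*Duox2*, *Duoxa2*, *Lcn2*), beside 7.94%. With at most 10% mitochondrial UMIs 1 of 5 measured members was lower and 2 were higher in the crypt-labelled libraries, beside 1.46% and 6.12% of all genes under that limit. In the villus-labelled ones 1 of 4 was lower and 1 higher, beside 10.7% and 3.76%. The minimum of 20 UMIs was applied again to the fewer cells kept. Between HFD VSG and LFD sham, a comparison that shares its libraries with both others, 2 were lower (*Saa1*, *Ubd*), beside 1.46%, and 2 were higher (*Duox2*, *Duoxa2*), beside 1.88%, in the crypt-labelled libraries, and with that scaling the shares were 2.13% and 1.28%. In the villus-labelled libraries 4 were lower (*Saa1*, *Ubd*, *Nos2*, *Lcn2*), beside 8.56%, and 1 was higher (*Duoxa2*), beside 2.89%. Since the members were chosen with these levels known, the counts describe them and nothing is read from their excess over the background.

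**Figure D2:**
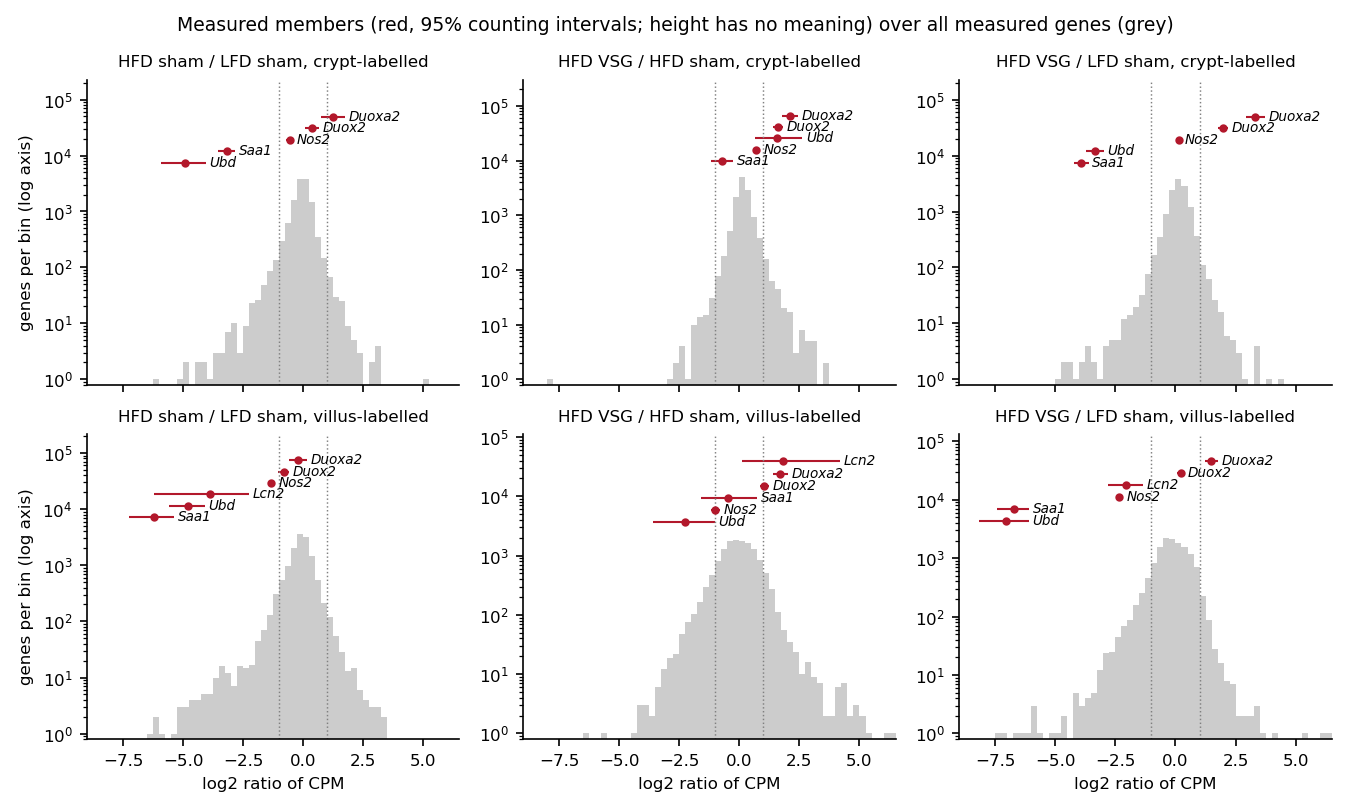
Log2 ratios of CPM for the measured members (red points with 95% counting intervals, stacked by value so that their height has no meaning) over the numbers of all measured genes per bin (grey, log axis). The top row holds the crypt-labelled and the bottom row the villus-labelled libraries, and dotted lines mark 2-fold. *Saa1* and *Ubd* lie at the far left of both comparisons with LFD sham.

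The members differed in the classes of epithelial cells that held them, which were formed without any member or pathway gene. Enterocyte-like cells held 56.0% of all epithelial UMIs, and 68.4% of the *Saa1* UMIs, 53.0% of *Ubd* and 70.2% of *Nos2*. Cluster 2, which stayed unnamed because transcripts of damaged droplets lead it but which passed 11 of the 12 enterocyte markers, held 7.13% of all epithelial UMIs and 27.2%, 41.8% and 23.5% of these 3 genes. It held 5.63% of *Duox2* and 3.27% of *Duoxa2*. These shares, like those above, pool all libraries, which held unlike numbers of cluster 2 cells. In the LFD sham crypts alone cluster 2 held 21.2% of *Duox2*, 7.27% of *Duoxa2* and 39.8% of *Nos2*. Over all libraries enterocyte-like cells held 51.8% of *Duox2* and 59.5% of *Duoxa2*. Cluster 5, which has no class and is led by *Gsdmc4*, *Gsdmc2* and *Dmbt1* (10.9% of all epithelial UMIs), held 17.9% and 20.1%. *Lcn2* lay toward the crypt, with 55.6% of its UMIs in stem-like and cycling progenitor-like cells, which held 14.4% of all. *Saa3* had 29.2% of its UMIs there, including 15 and 7 of its 34 UMIs in the HFD VSG villi. In the LFD sham crypts 35 of its 39 UMIs were in cluster 2. *Retnlb* had 62.5% of its 48 UMIs in goblet-like and 33.3% in Paneth-like cells, both secretory. *Saa2* had 62.2% of its 45 UMIs in enterocyte-like cells and 24.4% in cluster 2.

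The differences between diets were also present within enterocyte-like cells. *Saa1* was at 19.4 CPM in the LFD sham crypts and 26.5 in the LFD sham villi, and at 0.31 to 2.47 CPM in the 4 HFD libraries. The log2 ratios of HFD sham to LFD sham in these cells were -2.97 (-3.37 to -2.60) and -6.42 (-7.55 to -5.48). *Ubd* gave -4.80 (-6.26 to -3.65) and -4.50 (-5.33 to -3.77), from 6.53 and 12.4 CPM in LFD sham to 0.24 and 0.55 CPM in HFD sham. *Nos2* gave -0.32 (-0.51 to -0.14) and -1.39 (-1.59 to -1.20), and *Duox2* 0.73 (0.36 to 1.102) and -1.50 (-1.88 to -1.14), where the villus-labelled ratio was beyond 2-fold. In cluster 2 the order was the same, with *Saa1* at 30.1 and 56.8 CPM in the LFD sham libraries against 0 to 1.86 in the HFD ones, and *Ubd* at 26.4 and 44.4 against 0 to 1.63. Without clusters 2 and 3, the epithelial ratios of HFD sham to LFD sham were -2.97 and -6.03 for *Saa1* and -4.37 and -4.01 for *Ubd*. For the oxidase pair, HFD VSG to HFD sham in enterocyte-like cells was 1.72 (1.47 to 1.99) and 1.59 (1.26 to 1.93) for *Duox2*, and 2.32 (1.95 to 2.72) and 2.06 (1.61 to 2.55) for *Duoxa2*. In stem-like cells *Duox2* gave 1.78 (0.15 to 4.12), from 0 UMIs in HFD sham set to 3 and 45 in HFD VSG, and 0.29 (-0.75 to 1.54), where the interval includes 0. Not every cluster had a higher level after VSG. In goblet-like cluster 8 *Duox2* was at 16.2 and 14.9 CPM in the HFD sham and HFD VSG crypts, and at 11.3 and 11.2 CPM in the villi. The smaller goblet-like cluster 13 had 7.58 and 38.1 CPM in the crypts and 22.4 and 3.74 CPM in the villi, from 2, 13, 7 and 1 UMIs.

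Within the enterocyte-like cells the members had different clusters as their highest. The tip cluster 4 had *Saa1* at 35.2 CPM from 555 cells in the LFD sham crypts and 154 CPM from 199 cells in the LFD sham villi. The same cluster had 0 *Saa1* UMIs in both HFD sham libraries (404 and 86 cells) and 16 in the 455 cells of the HFD VSG crypts. *Ubd* was at 32.3 and 119 CPM in its LFD sham cells, and had 0 and 2 UMIs in HFD sham. In those of the HFD VSG crypts it was at 7.51 CPM, from 38 UMIs, of which 1 cell held 31. *Duox2* in cluster 4 was at 17.6, 44.0 and 104 CPM in the LFD sham, HFD sham and HFD VSG crypts and at 55.0, 23.8 and 49.5 CPM in the villi, the last from 27 cells. It was the highest cluster for *Duox2* in each library except the LFD sham crypts, where 27 cells of the cycling progenitor-like cluster 10 gave 22.5 CPM from 17 UMIs. In the HFD sham villi its 23.8 CPM came from 11 UMIs. Cluster 13 was at 22.4 CPM from 7 UMIs there, and the intervals overlapped. *Duoxa2* in cluster 4 was at 6.93, 18.7 and 73.2 CPM in the crypt-labelled libraries. In the villus-labelled ones it was at 14.1, 6.504 and 19.4 CPM, from 19, 3 and 9 UMIs, where HFD sham was not above LFD sham, and in the HFD VSG villi cluster 14 was higher, at 29.3 CPM from 29 cells.

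Cluster 9, led by *Plb1*, *Tmigd1*, *Fabp6* and the bile acid transporter gene *Slc10a2*, had the highest *Nos2* level of all clusters in each of the 6 libraries, from 41.5 CPM in the HFD VSG villi to 130.4 CPM in the LFD sham villi. It also held 40 of the 71 *Saa1* UMIs in the HFD sham crypts, of which 1 cell held 25. In the HFD VSG crypts it held 50 of the 95, of which 1 cell held 21. Cluster 14, led by the interferon-stimulated genes *Ifit1* and *Isg15*, had *Saa1* at 81.4 CPM and *Ubd* at 106 CPM in 26 cells of the LFD sham villi, but 1.74 and 4.34 CPM in 84 cells of the LFD sham crypts. Cluster 17, whose leading genes include *Guca2b* and the class II genes *H2-DMa* and *H2-Eb1*, had *Saa1* at 138 CPM in the LFD sham crypts from 26 UMIs in 40 cells and 0 UMIs in the HFD libraries.

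**Figure D3:**
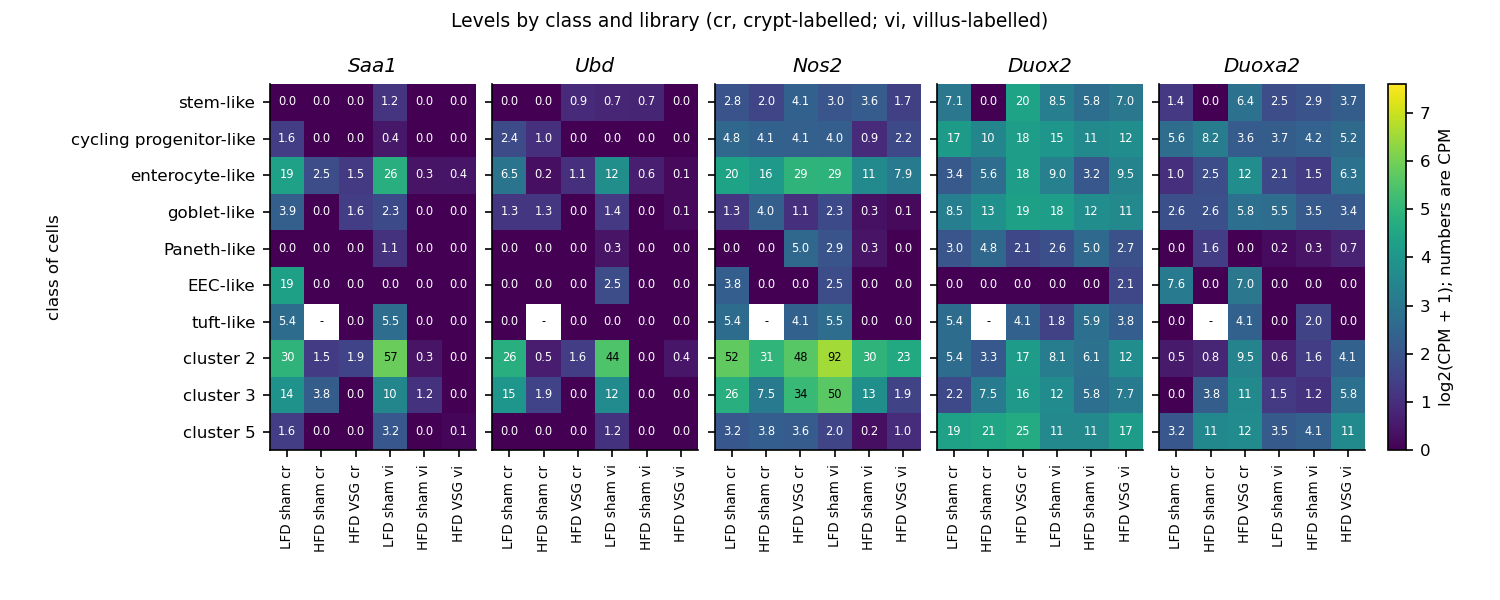
Levels of *Saa1*, *Ubd*, *Nos2*, *Duox2* and *Duoxa2* by class and library, colored by log2(CPM + 1) with CPM printed in each field. A dash marks fewer than 20 cells. *Saa1* and *Ubd* are bright in enterocyte-like cells and clusters 2 and 3 of the LFD sham libraries, and *Duox2* is found in nearly all classes.

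Enterocyte-like cells were then divided into 5 zones of about equal size over all libraries together, from villus base (zone 1) to villus tip (zone 5) by the share of tip genes among tip and base gene UMIs (11591 of 11604 cells). *Saa1* in the LFD sham crypts was at 0.99 (0.12 to 3.57) CPM in zone 1, 36.9 (33.1 to 41.0) in zone 4 and 35.4 (30.7 to 40.7) in zone 5. In the LFD sham villi it was at 1.06 (0.46 to 2.10) in zone 1, 77.2 (66.7 to 88.7) in zone 4 and 172 (153 to 192) in zone 5. At the same position, zone 5, *Saa1* was at 1.78 (0.65 to 3.88) CPM in the HFD sham crypts and 2.43 (1.55 to 3.61) in the HFD VSG crypts. It had 0 UMIs in the 97 HFD sham and 31 HFD VSG cells of the villus-labelled libraries, where the upper limits were 6.61 and 6.31 CPM. *Ubd* was at 0 and 25.1 CPM in zones 1 and 5 of the LFD sham crypts and at 0.53 and 119 CPM in those of the LFD sham villi.

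*Nos2* was higher in zone 5 than in zone 1 in all 6 libraries, but in the 4 sham libraries zone 4 was the highest, for example at 4.92, 83.5 and 38.7 CPM in zones 1, 4 and 5 of the LFD sham villi. In the HFD VSG crypts these values were 7.94, 38.9 and 45.2 CPM. *Duox2* was highest in zone 5 in all 6 libraries. Its zone 5 levels were 11.6, 28.8 and 63.5 CPM in the crypt-labelled and 47.1, 19.7 and 35.9 CPM in the villus-labelled libraries. HFD VSG lay above HFD sham there in the crypts, with intervals of 58.6 to 68.6 and 23.4 to 35.2 CPM. In the villi its value was also higher, at 22.2 to 54.9 CPM (21 UMIs) against 9.84 to 35.3 CPM (11 UMIs), but these intervals overlapped. LFD sham had the highest villus-labelled value in zone 5 (37.6 to 58.3 CPM), and its interval overlapped that of HFD VSG. *Duoxa2* was highest in zone 5 in each library but the HFD VSG villi, where zone 3 held 19.8 CPM and zone 5 13.7. The zones are ranges of a score and not cell types, with 1081, 974, 633 and 185 cells within 0.02 of the 4 limits. The libraries fill them unequally: the LFD sham crypts gave 706 cells to zone 5 but the HFD VSG villi 31.

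**Figure D4:**
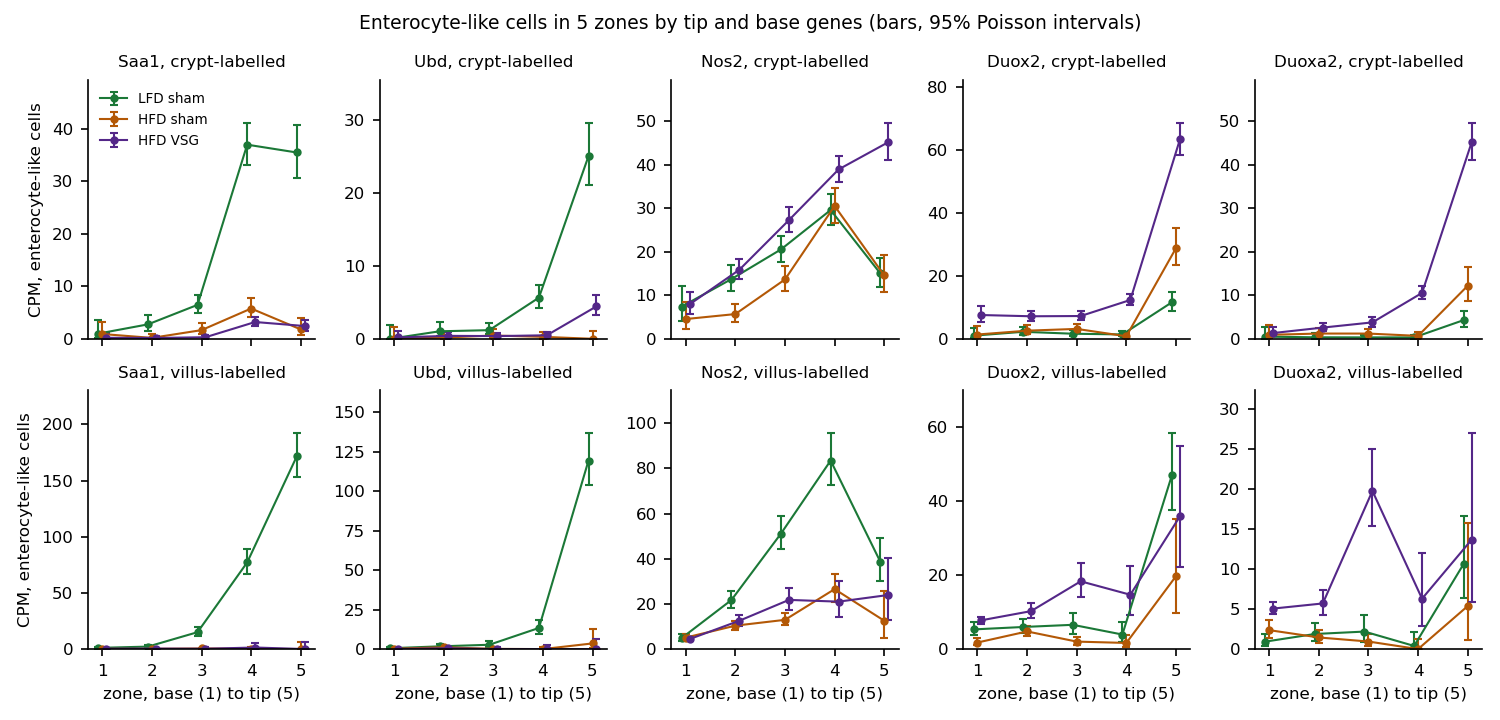
CPM of 5 members in 5 zones of enterocyte-like cells, ordered from villus base (1) to villus tip (5), with 95% Poisson intervals. Each panel has its own axis from 0, and the legend gives the groups. *Saa1* and *Ubd* are highest toward the tip in LFD sham, whereas *Nos2* and *Duox2* are higher in zone 5 than in zone 1 in all groups.

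The levels came from a minority of cells. A *Saa1* UMI was found in 265 of the 4087 epithelial cells from the LFD sham crypts (6.48%) and 275 of 3519 (7.81%) in the LFD sham villi, and the highest 1% of cells held 61.7% and 49.0% of the UMIs. Because depth differs between libraries, enterocyte-like cells were thinned to 2000 UMIs. *Saa1* was then found in 1.92% (1.37 to 2.61) of 2032 cells in the LFD sham crypts and 4.53% (3.45 to 5.83) of 1258 in the LFD sham villi, against 6.12% and 11.6% before thinning. The HFD libraries had 0 to 0.28% after thinning and 0.38 to 1.00% before. In the HFD sham villi 0 of 1824 thinned cells had a UMI, which allows up to 0.16% of cells with a UMI at the thinned depth and does not limit the share that express the gene, and 0.38% had one before thinning. Immune-like cells, which should lack the gene, gave 0 of 123 cells and 0.47% (3 of 645) in the 2 LFD sham libraries after thinning. Their median depths were 3259 and 3023.5 UMIs, against 16365 and 16878.5 in the enterocyte-like cells. Droplets with fewer than 100 UMIs, which hold free RNA, had *Saa1* at 13.0 and 14.99 CPM in the LFD sham libraries and at 0 to 2.61 CPM in the others, so the diets also differed in the RNA outside cells.

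After the same thinning, *Ubd* was found in 1.33% and 3.18% of LFD sham enterocyte-like cells, of the crypt-labelled and villus-labelled library, and in 0 to 0.22% of the HFD ones. In immune-like cells it was found in 1.63% (2 of 123, 0.20 to 5.75) and 1.09% (7 of 645) of those libraries. The first interval is wide and includes the 1.33% of enterocyte-like cells, so these few cells do not set a background for the LFD sham crypts. *Nos2* was found in 1.36 to 5.33% of enterocyte-like cells, highest in the LFD sham villi, and in 0 to 1.40% of immune-like cells. *Duox2* was found in 4.22% of enterocyte-like cells in the HFD VSG crypts, 2.12% in the HFD sham crypts, 0.79% in the LFD sham crypts, and 1.83%, 0.88% and 1.93% in the LFD sham, HFD sham and HFD VSG villi, with 0 to 1.37% in immune-like cells. Cells with *Saa1* held *Ubd* more often than other cells in the LFD sham libraries. In the LFD sham villi 11 of 57 cells with *Saa1* also had *Ubd* (19.3%), against 2.41% of the cells without *Saa1*, and in the LFD sham crypts 8 of 39 (20.5%), against 0.95%. The HFD libraries had 0 to 6 cells with *Saa1*, of which 0 had *Ubd*. Of the cells with *Duox2*, *Duoxa2* was found in 5 of 16, 4 of 38 and 34 of 137 in the LFD sham, HFD sham and HFD VSG crypts, where 0.20% to 1.16% of the others had it, and in 3 of 23, 0 of 16 and 1 of 27 in the villi, against 0.24% to 1.53%. *Nos2* was found in 6 of 39 and 7 of 57 of the cells with *Saa1* in the LFD sham crypts and villi (15.4% and 12.3%), against 2.86% and 4.996% of the cells without. In the HFD sham crypts, HFD VSG crypts and HFD VSG villi it was found in 0 of 5, 3 of 6 and 0 of 2. Of the cells with *Ubd*, 1 of 27 and 5 of 40 in the LFD sham crypts and villi had *Nos2* (3.70% and 12.5%), against 3.09% and 5.09% of the others, and 0 of 7 in the HFD VSG crypts and 1 of 1 in the HFD sham villi. Of the cells with *Nos2*, 2 of 63, 0 of 47 and 12 of 169 in the crypt-labelled and 0 of 67, 1 of 45 and 0 of 19 in the villus-labelled libraries had *Duox2*, where 0.71% to 4.06% of the others did. Of those with *Saa1*, 0 of 39, 1 of 5 and 1 of 6 in the crypt-labelled libraries and 1 of 57 and 0 of 2 in the LFD sham and HFD VSG villi had *Duox2*, against 0.803% to 4.19% of the others. Cells share their library here, so these counts are a description.

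The genes whose levels most resembled each member over 59 sums of class and library were sought among 9889 genes whose mean reached 5 CPM. For *Saa1* they were the class II antigen presentation genes *H2-Aa* (Pearson r = 0.79), *H2-Ab1* (0.76), *H2-Eb1* (0.73) and *Cd74* (0.70), followed by *Slc5a4a* (0.68). *Ubd* was most like the class II genes too, *H2-Aa* (0.74), *H2-Ab1*, *H2-DMb1*, *H2-Eb1* and *Cd74* (0.66). *Nos2* was most like *Mgam* (0.86), a brush border glucosidase, then *Cobl*, *Xdh*, *Mbl2* and *Clca4b* (0.84 to 0.83). For *Duox2* the genes were *Slc25a13* (0.74), *Smim31*, *Tmco4*, *Lypd8* and *Tgm2* (0.72), and for *Duoxa2* *Me1* (0.67), *Pla2g4c*, *Phgr1*, *Yif1a* and *Coa3* (0.65). The sums of 1 library share its depth and cells, so the coefficients are a description.

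The wider pathways were described with lists of receptors, transcription factors and target genes, without a test, since the lists were written with results of these data known. Of 16 interferon-gamma target genes measured in the crypt-labelled libraries, 10 were beyond 2-fold lower in HFD sham than in LFD sham and 0 were higher, beside 2.93% and 1.19% of all measured genes, with a median log2 ratio of -2.78 beside -0.020 over all genes. The villus-labelled libraries gave 12 of 17 lower and 0 higher (all genes 5.04% and 1.82%), with a median of -1.87 beside -0.069. *Gbp2* in the crypt-labelled and *Gbp2*, *Iigp1* and *Ido1* in the villus-labelled libraries reached the minimum of 20 UMIs only through LFD sham, so that their UMIs had to be fewer in HFD, and without them 9 of 15 and 9 of 14 were lower. The lowest ratios in the crypt-labelled libraries were those of the interferon-induced GTPase genes *Gbp6*, whose UMIs numbered 76 with LFD sham against 2 with HFD sham, and *Igtp* (-3.50). In the villus-labelled ones *Iigp1* had 70 UMIs with LFD sham against 0 with HFD sham, and *Ido1*, which degrades tryptophan, had 49 and 0. *H2-Aa*, a class II gene, was at 187 CPM in the LFD sham crypts and 17.9 in the HFD sham crypts, and at 110.4 and 7.35 CPM in the villi. Class II genes are also made by immune cells, so values of the enterocyte-like cells alone are given too: there *H2-Aa* was at 212 and 177 CPM in the 2 LFD sham libraries and at 2.70 to 18.02 CPM in the 4 HFD libraries. *Psmb8* and *Psmb9*, subunits of the immunoproteasome, had the highest ratios of the list in the crypt-labelled libraries, -0.22 and -0.17. After VSG 4 of these genes were higher (*Gbp6*, *Igtp*, *Gbp2*, *Gbp7*) and 1 was lower (*Ido1*) than in HFD sham in the crypt-labelled libraries, beside 2.63% and 0.642% of all genes, with a median of 0.066 (all genes 0.16). *Gbp2* had 2 UMIs in HFD sham and 18 in HFD VSG there, and its interval (-0.34 to 3.84) includes 0. In the villus-labelled ones 0 were higher and 3 lower (*H2-Aa*, *H2-Ab1*, *H2-Eb1*), beside 7.94% and 9.15%, with a median of -0.043 (all genes -0.022), and *Iigp1* had 1 and 0 UMIs there and no ratio. Against LFD sham, HFD VSG had 11 of 16 lower and 0 higher (median -1.95) in the crypt-labelled and 12 of 17 lower and 0 higher (median -1.74) in the villus-labelled libraries, beside 1.46% and 1.88%, and 8.56% and 2.89%, of all genes. Without the genes that passed through LFD sham only, these were 10 of 15 and 9 of 14.

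Of 14 antimicrobial and interleukin-22 target genes measured in the crypt-labelled libraries, 2 were beyond 2-fold lower in HFD sham than in LFD sham and 0 higher, beside 2.93% and 1.19% of all genes (median -0.24, all genes -0.020). The lower ones were *Reg3g*, a lectin that kills Gram-positive bacteria (-1.22, 3510.2 CPM in LFD sham and 1506 CPM in HFD sham), and *Fut2*, which fucosylates the epithelial surface (-1.47). Of 13 in the villus-labelled libraries 3 were lower and 1 higher, beside 5.04% and 1.82% (median -0.74, all genes -0.069). The lower ones were *Sprr2a1* (-1.95), *Reg3g* (-1.65) and *Dmbt1* (-1.41), and the higher one was *Reg3a* (1.64). *Sprr2a1* reached the minimum of UMIs only through LFD sham, so that its UMIs had to be fewer on average in the HFD libraries. Without it 2 of 12 were lower and 1 higher. After VSG *Sprr2a3*, a small proline-rich protein gene, had the highest ratio to HFD sham, 2.90 (6.98 CPM in HFD sham, 52.2 in HFD VSG) in the crypt-labelled and 3.15 (2.48 and 22.0 CPM) in the villus-labelled libraries. In the crypt-labelled ones it was the only one of the list beyond 2-fold, beside 0.642% lower and 2.63% higher of all genes. In the villus-labelled ones *Sprr2a1* was higher too (1.03, from 6 and 31 UMIs), beside 7.94%, with an interval (-0.26 to 2.58) that includes 0. There 2 of 13 were lower, beside 9.15%: *Ang4* (-1.72) and *Itln1* (-1.37), both Paneth cell genes. Paneth-like cells were 1.19% of epithelial cells in HFD VSG, 5.85% in HFD sham and 3.95% in LFD sham of these libraries. Between HFD VSG and LFD sham, *Reg3g* was lower and *Sprr2a3* higher under both labels, and in the villus-labelled libraries *Ang4*, *Itln1*, *Reg3b* and *Fut2* were lower too, beside 1.46% lower and 1.88% higher of all genes in the crypt-labelled and 8.56% and 2.89% in the villus-labelled libraries.

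Of 13 receptors and adaptors in the crypt-labelled libraries none was beyond 2-fold in any of the 3 comparisons, where 2.93% and 1.19% of all genes were lower and higher in HFD sham than in LFD sham, 0.642% and 2.63% in HFD VSG than in HFD sham, and 1.46% and 1.88% in HFD VSG than in LFD sham. At these shares nothing is read from the count. Of 15 in the villus-labelled ones 2 were lower in HFD sham than in LFD sham, *Tlr1* (-1.67) and *Tlr2* (-1.74), beside 5.04% of all genes. Both were higher after VSG than in HFD sham (1.63 and 2.14), beside 7.94%. Their sums in LFD sham, HFD sham and HFD VSG were 41, 12 and 94 UMIs for *Tlr1* and 18, 5 and 56 for *Tlr2*. *Tlr2* lay below the minimum of UMIs in both sham libraries and reached it only through HFD VSG. Its higher level after VSG was therefore favoured by that minimum, and nothing is read from it beside the share of all genes. *Il22ra1*, the interleukin-22 receptor, was lower in the HFD VSG villi than in the HFD sham villi (-2.26, 9.86 CPM in HFD sham and 2.06 CPM in HFD VSG), beside 9.15%, and than in the LFD sham villi (-2.27), beside 8.56%. Enterocyte-like cells were 36.3% of the epithelial cells in the HFD VSG villi, 46.9% in HFD sham and 35.9% in LFD sham, where *Il22ra1* was at 9.93 CPM. Of 19 transcription factors and feedback genes none was beyond 2-fold between HFD sham and LFD sham or between HFD VSG and HFD sham, with medians from -0.27 to 0.15, and nothing is read from this count either, beside 5.04% lower and 1.82% higher and 9.15% and 7.94% of all genes in the villus-labelled libraries and the shares above in the crypt-labelled ones. Between HFD VSG and LFD sham, *Bcl3*, a nuclear partner of NF-kB subunits, was higher under both labels (1.07 and 1.08), beside 1.88% and 2.89%, and *Tnfaip3*, which dampens NF-kB signalling, was lower in the villus-labelled libraries (-1.15), beside 8.56%.

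Among 9 chemokines and cytokines, 0 were beyond 2-fold lower and 0 higher in HFD sham than in LFD sham in the crypt-labelled libraries, beside 2.93% and 1.19% of all genes. In the villus-labelled ones *Il33*, an alarmin, was higher in HFD sham than in LFD sham (1.21, beside 1.82%) and lower after VSG than in HFD sham (-1.98, beside 9.15%), at 9.56, 22.1 and 5.598 CPM in LFD sham, HFD sham and HFD VSG. *Ccl20*, which attracts lymphocytes and dendritic cells, was higher after VSG than in HFD sham in the crypt-labelled libraries (1.69, 1.11 CPM in HFD sham and 3.59 CPM in HFD VSG), beside 2.63%, and its villus-labelled ratio was 0.12. The last list held genes of superoxide and peroxide enzymes and their subunits, and also of arginine enzymes. Among its 13 genes, *Gpx1* alone was beyond 2-fold between HFD sham and LFD sham in the crypt-labelled libraries. It was higher there (1.18), beside 1.19% of all genes. Of 14 in the villus-labelled ones *Noxa1* was lower (-1.14) and *Arg2*, the gene of an arginase, higher (1.03) in that comparison, beside 5.04% and 1.82%. After VSG 4 of 14 were higher than in HFD sham in the villus-labelled libraries, beside 7.94%: *Cyba* (1.45) and *Noxa1* (1.42), subunits of other oxidases, and *Gpx2* (1.13) and *Gpx1* (1.11), which break down peroxides. *Cat*, the gene of catalase, was lower there (-1.10), beside 9.15%. In the crypt-labelled libraries the same comparison gave 0.81 for *Cyba*, 0.34 for *Noxa1*, 0.33 for *Gpx2*, 0.25 for *Gpx1* and -0.077 for *Cat*, all within 2-fold.

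**Figure D5:**
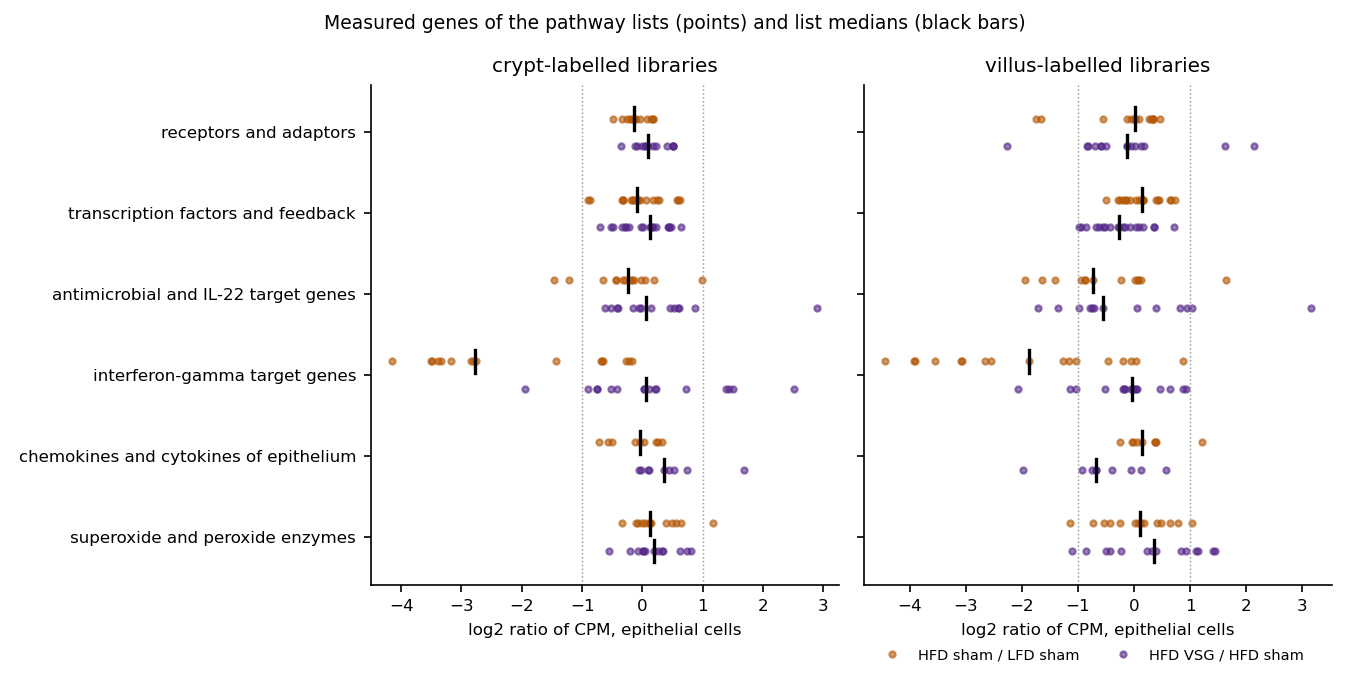
Log2 ratios of CPM over epithelial cells for the measured genes of each list (points) with list medians (black bars), for HFD sham to LFD sham (orange) and HFD VSG to HFD sham (purple). Dotted lines mark 2-fold. The interferon-gamma target genes extend below -3 between the diets in both panels.

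The immune-like cells were searched for the cytokines that act on these genes. *Il22* had 0 UMIs in the immune-like cells of all 6 libraries, 5 to 688 cells in each, and 3 UMIs per sum is the limit that a count of 0 allows. *Il17a* had 4 UMIs, all in 1 cell of the HFD VSG villi, and *Il17f* had 0. *Ifng*, the gene of interferon-gamma, was at 37.1 and 44.7 CPM in the LFD sham crypts and villi (16 and 98 UMIs). It was at 6.92, 21.0 and 11.7 CPM in the HFD sham crypts, HFD VSG crypts and HFD VSG villi (2, 7 and 39 UMIs). The HFD sham villi had 5 immune-like cells, 1 of which held 8 *Ifng* UMIs. *Tnf* was at 20.8 and 21.0 CPM in the LFD sham libraries (9 and 46 UMIs), at 3.00 and 2.40 CPM in the HFD VSG ones (1 and 8 UMIs), and had no UMI in HFD sham. Counts of this size describe few cells, and were not compared further. The libraries were made from epithelial preparations, so the counts do not describe immune cells outside the epithelium.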

How the data were processed

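RNA of single jejunal epithelial cells was captured with 10x Genomics 3′ chemistry, version 3.1. The authors aligned the reads to mm10 with Cell Ranger 6.0.0 (per the labels) and deposited raw UMI counts of each gene in all droplets and in the barcodes called as cells, with no normalization. The latter held 60522766 to 155522445 UMIs per library, which sets the precision of every sum. Barcodes were kept with at least 750 genes and at most 20% mitochondrial UMIs, and 2118 scored doublets (0.8% per 1000 called barcodes) were removed. The first doublet score missed most planted doublets, so it was revised after the data had been seen, on planted recovery alone: 50% to 58.1% of sums of random barcode pairs were then removed, against 3.62% to 7.18% of other barcodes, so doublets remain. Under the first score *Saa3* counted as measured in the villus-labelled libraries and *Nos2* in HFD VSG against HFD sham villi was not beyond 2-fold. Seurat 5.3.0 (sctransform 0.4.2, R 4.3.3) integrated the 6 libraries, giving 18 clusters at resolution 0.4, with the members and pathway genes (135 in all) kept out.

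Clusters took the name of a class when over 50% of its markers were at least 2-fold above the median cluster and in at least 10% of cells. Clusters 2, 3 and 5 stayed unnamed. UMIs were summed and scaled to CPM, and sums under 3 were set to 3 in ratios, with no ratio where both were 3 or fewer. Intervals were exact Poisson and binomial limits at 95%, which cover counting error only, and ratio intervals were tested on simulated data. No test was run, as each group was 1 library. Named genes were the 9 members, the 5 genes most like each member with at least 1000 UMIs, from each pathway list those with the 2 highest and 2 lowest ratios of a comparison, and a list of cytokines read in immune-like cells. *H2-Aa* and *Dmbt1* (HFD sham against LFD sham), *Gbp2*, *Gbp7*, *H2-Eb1*, *Gpx1*, *Gpx2* (HFD VSG against HFD sham), *Reg3b*, *Reg3g* and *Fut2* (HFD VSG against LFD sham villi) fell outside this rule there and were named after their values were seen. Members, lists and classes were chosen with earlier results of these data known. Alternatives were other cell filters, scalings, thresholds, free RNA subtraction, thinning, doublets kept and resolution 0.8. Python 3.11.15, numpy 2.4.6, scipy 1.17.1 and pandas 2.3.3 were used. The authors subtracted free RNA before their own analysis, which the deposited counts do not include. Their estimates of the free RNA fraction were higher in both HFD sham libraries than in all others. The fractions taken here from immune-like cells for the subtraction were 0.10 (HFD VSG villi) to 0.29 (HFD VSG crypts), and the HFD sham villi had 5 such cells.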

Additional observations from a re-analysis of the deposited data

Results flagged for a closer look

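For 3 measured members a ratio had opposite signs in the crypt-labelled and the villus-labelled libraries, with counting intervals that excluded 0 under both labels. With 1 library per group, the difference between the labels was not tested. *Ubd* in HFD VSG against HFD sham was at a log2 ratio of 1.56 in the crypt-labelled and -2.26 in the villus-labelled libraries. In the HFD sham villi 11 of its 17 UMIs and in the HFD VSG crypts 31 of its 72 UMIs came from 1 cell. Without the highest cell of each library the ratios were 1.203 (0.091 to 2.51) and -1.35 (-3.25 to 0.56), the second from 6 against 6 UMIs with an interval that includes 0. *Nos2* was at 0.71 and -1.01 in the same comparison, and at 0.13 and -2.34 in HFD VSG against LFD sham. The value of 0.13 lay at the median of all genes (0.14), and median-of-ratios scaling, which brings that median to -0.0018, took it to -0.013, as cells thinned to 2000 UMIs did (-0.012), so that both labels then had the same sign. In enterocyte-like cells alone the ratios were 0.55 (0.42 to 0.68) and -1.90 (-2.09 to -1.72) in that comparison and 0.87 (0.71 to 1.03) and -0.51 (-0.73 to -0.29) in HFD VSG against HFD sham, of opposite sign in both. *Duox2* in HFD sham against LFD sham was at 0.36 and -0.82, at 0.0050 and -0.91 with at least 1500 genes per cell and at 0.73 (0.36 to 1.102) and -1.50 (-1.88 to -1.14) in enterocyte-like cells. Signs also differed for *Duoxa2* in HFD sham against LFD sham (1.22 and -0.22), where the villus-labelled interval included 0, and for *Saa2*, which was too sparse to count as measured. With at most 10% mitochondrial UMIs *Nos2* in HFD VSG against HFD sham was at -0.19 and -1.27, and against LFD sham at -0.034 and -1.84.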

How the results depend on the processing

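The log2 ratios of *Saa1*, *Ubd*, *Nos2*, *Duox2* and *Duoxa2* described above are limited by 1 library per group and by the depth of the sparse members. No paired analysis was possible because no replicate numbers were given and each condition had 1 library per label. The crypt-labelled and villus-labelled libraries of a condition came from 1 set of pooled mice and different fractions, so they were set side by side and not used as replicates. A limit of 10% mitochondrial UMIs kept 24.9% (LFD sham crypts) to 79.0% (HFD VSG villi) of epithelial cells. For *Saa1* in HFD sham against LFD sham, the crypt-labelled ratio of -3.19 was -2.22 with that limit and -3.73 without the highest cell, and the villus-labelled ratio of -6.24 was -5.15 with that limit. For *Duox2* in HFD VSG against HFD sham, the crypt-labelled ratio of 1.61 was 1.93 with at least 1500 genes, 1.02 with at most 10% mitochondrial UMIs and 1.25 with cells thinned to 2000 UMIs. The villus-labelled ratio of 1.03 was 0.67 with at most 10%, 0.75 thinned and 1.59 in enterocyte-like cells alone, an alternative chosen after seeing the data. *Lcn2* in HFD VSG against HFD sham villi turned to -0.39 in enterocyte-like cells alone. Thinned cells gave no ratio for *Saa1*, *Ubd* and *Lcn2* there, since both sums were 3 UMIs or fewer. With no minimum of UMIs, 4 members were beyond 2-fold lower in HFD sham against LFD sham crypts, 7 in the villi and 4 in HFD VSG against LFD sham crypts, beside 4.86%, 7.39% and 4.81% of all genes with a ratio. In HFD VSG against HFD sham crypts 1 was lower with at most 10%, either subtraction of free RNA or a 1.5-fold limit, beside 0.683% to 2.13%. In the villi of that comparison 1 was lower with at most 10%, at least 1500 genes, clusters 2 and 3 left out or enterocyte-like cells alone, beside 5.07% to 10.7%, and 1 was higher with at most 10%, beside 3.76%. With at most 10%, 1 was lower in HFD sham against LFD sham villi and 2 in HFD VSG against LFD sham villi, beside 3.74% and 9.82%. Each cell filter applied the minimum of 20 UMIs again to fewer cells, and other causes were not tested.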
